A study of Homo sapiens with 4 samples.

Results

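Integrin and laminin chain genes encode the parts of cell surface receptors and of the matrix that many of those receptors bind. The members were the 37 of 56655 gene symbols in the count tables that name an integrin α chain (ITGA followed by a number or by D, E, L, M, V or X, 17 genes), an integrin β chain (ITGB1 to ITGB8, 8 genes) or a laminin α, β or γ chain (LAMA, LAMB or LAMC followed by a number, 12 genes). The αIIb gene carries a symbol of another form and was not included. Poly(A)-selected RNA was sequenced from OVCAR5, an established human ovarian cancer cell line that the labels class as high grade serous and derived from ascites. All 4 libraries came from cells that had received a lentiviral hairpin vector and puromycin selection. In 2 of them (shCtrl) the hairpin had no target, and in the other 2 (shFOXK2) 1 hairpin was directed at the forkhead transcription factor gene FOXK2. The design text calls the 2 libraries of each group biological duplicates, and with 1 hairpin the effect of FOXK2 and that of the hairpin sequence cannot be told apart.

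An integrin is a dimer of 1 α and 1 β chain that crosses the plasma membrane, binds matrix or a counter-receptor outside the cell and connects to the actin or keratin cytoskeleton inside it. The β1 chain is shared by many α chains, whereas β4 is known to pair with α6 alone, in hemidesmosomes. A laminin is a cross-shaped trimer of 1 α, 1 β and 1 γ chain, and laminins are the main glycoproteins of epithelial basement membranes. In general neither chain of an integrin reaches the surface without its partner, and laminin trimers assemble inside the cell before secretion. Ovarian cancer cells in ascites are known to use such receptors to attach to the mesothelial matrix.

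Library totals ranged from 14284005 to 21950873 counts, and 3 counts, the floor used here, were worth 0.137 to 0.21 CPM (counts scaled to a common total, here with TMM factors). Floors cover counting error alone, while the intervals of fold changes come from the edgeR fit and include the spread between libraries. FOXK2 itself stood at 80.5 and 93.4 CPM in shCtrl and at 76.4 and 59.6 CPM in shFOXK2. Its levels did not overlap between the groups, but the log2 fold change of -0.36 (SE 0.25, 95% interval -0.89 to 0.18) did not pass the edgeR quasi-likelihood test (adjusted p = 0.257). After an offset for transcript A content its log2 fold change was -0.03. The 8 epithelial markers (EPCAM, KRT7, KRT8, KRT18, KRT19, CDH1, CLDN3, CLDN4) were all above the filter and summed to between 4240 and 5763 CPM in each library, while of 6 Müllerian or ovarian markers PAX8 and MUC16 alone passed it, and WT1, SOX17, ESR1 and EMX2 had at most 3 counts in any library. Most of the epithelial sum came from keratins, and CDH1 (log2 fold change -4.02), CLDN3 (-1.96) and CLDN4 (-1.02) were lower in shFOXK2 and 0 of the 8 higher. PAX8 (-0.88) and MUC16 (-5.76) were lower too, and the part of these differences in the chain gene values was not tested. Markers of leukocytes, fibroblasts and endothelium summed to at most 23.4, 20.6 and 10.6 CPM.

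Of the 37 chain genes, 31 passed the filter on low counts and were tested. Of these 31, 14 passed an adjusted p of 0.05 (45.2%), against 48.4% of all 16417 genes tested, so the share of chain genes that changed was near the background. By direction, 13 were lower in shFOXK2 (41.9%, background 22.7%) and 1 was higher (background 25.7%). The chain genes were chosen with earlier results of these data known, so these shares are a description and not a test. The median log2 fold change was -0.89 over the 31 genes and 0.04 over all genes tested. The groups of 2 did not overlap for 22 of the 31 (71.0%, background 75.4%). The laminins had 7 of 12 lower and 0 higher with a median of -0.91, the β chains 3 of 7 lower and 0 higher with a median of -1.04, and the α chains 3 of 12 lower and 1 higher with a median of -0.53. Of the 20 tested genes with a mean of at least 10 CPM, 10 were lower and 0 higher. The 6 genes not tested were ITGA4, ITGA8, ITGA9, ITGA10, ITGAL and ITGB7, which had between 0 and 12 counts in each library. ITGA4, ITGA9, ITGAL and ITGB7 are best known from leukocytes or lymphatic vessels, and ITGA8 and ITGA10 from kidney mesenchyme and cartilage.

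**Figure D1:**
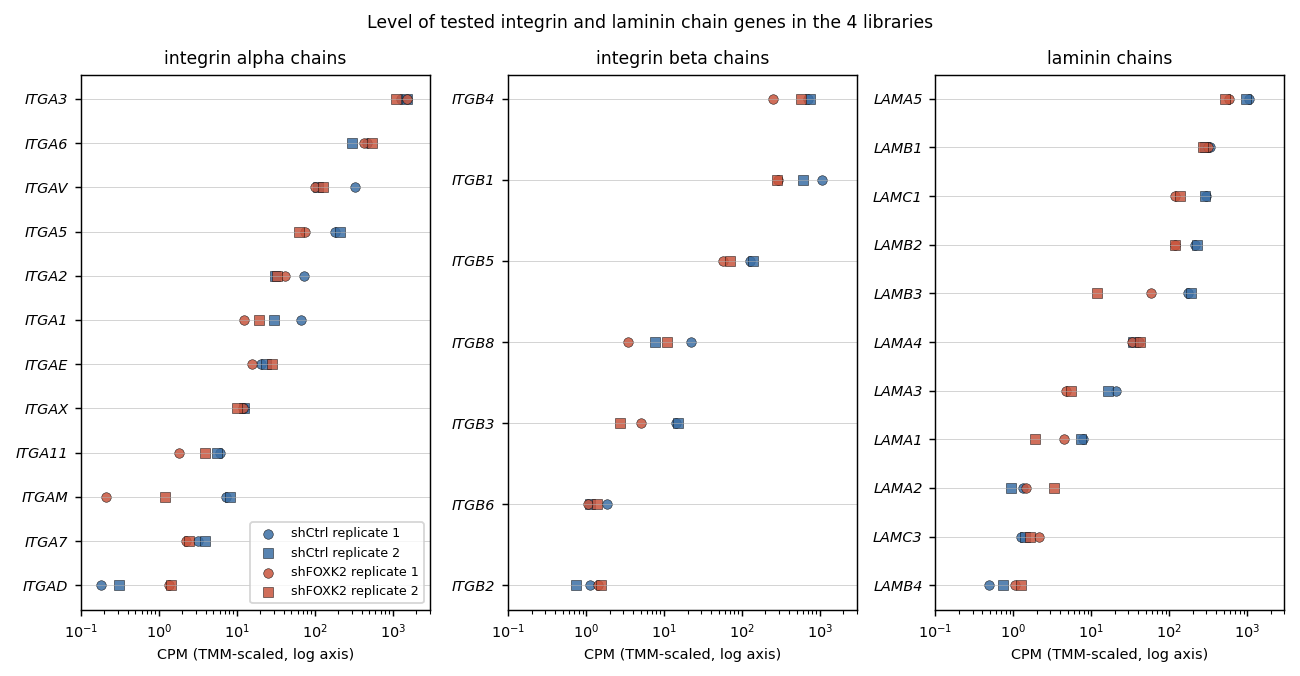
TMM-scaled CPM (log axis) of the tested chain genes shown, in each library, with shCtrl in blue and shFOXK2 in red, circles for replicate 1 and squares for replicate 2. The red points of LAMB3 (58.3 and 12.0 CPM), LAMC1 and ITGA5 lie left of both blue points, whereas those of ITGA3, LAMB1 and LAMA4 are interleaved with them.

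**Figure D2:**
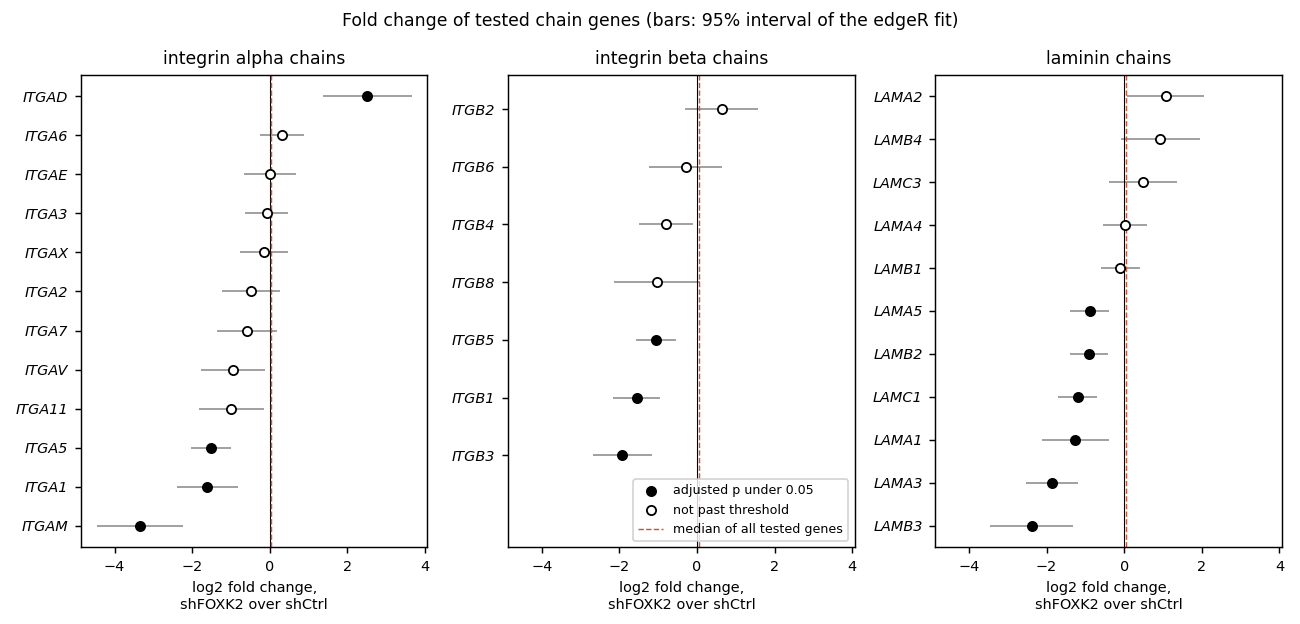
Log2 fold change of shFOXK2 over shCtrl for the tested chain genes shown, with bars for the 95% interval of the edgeR fit and filled points for an adjusted p under 0.05. The filled points left of 0 run from -3.35 (ITGAM) to -0.89 (LAMA5), and the filled point right of 0 is ITGAD at 2.51.

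Laminin-332, which anchors epithelia through integrins α3β1 and α6β4, had its α chain LAMA3 and its β chain LAMB3 lower in shFOXK2. The RefSeq windows of 250 bases before a transcription start (GRCh38.p14) were searched on both strands for the AP-1 motif TGANTCA and the forkhead motif TGTTTAC. No single run of bases matches both motifs. TGANTCA occurred in 6.57% of the 35116 windows and TGTTTAC in 2.98%. Windows were held for 25 of the 37 genes (32 windows). TGANTCA lay in 2 of the 32, 1 window each of LAMA3 and LAMB3, while TGTTTAC lay in 0 of the 32. The share with TGANTCA was near that over all windows, so this motif does not set the members apart. The windows of LAMA3 (chr18:23872770-23873019, plus strand) and LAMB3 (chr1:209651375-209651624, minus strand) are given 5′ to 3′ because they are the only member windows with a match, and capitals mark it.
LAMA3: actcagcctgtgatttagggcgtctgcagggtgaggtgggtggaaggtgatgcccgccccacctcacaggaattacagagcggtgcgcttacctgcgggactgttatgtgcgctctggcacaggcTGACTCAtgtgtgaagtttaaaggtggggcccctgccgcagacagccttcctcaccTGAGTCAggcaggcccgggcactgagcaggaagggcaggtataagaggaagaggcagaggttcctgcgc
LAMB3: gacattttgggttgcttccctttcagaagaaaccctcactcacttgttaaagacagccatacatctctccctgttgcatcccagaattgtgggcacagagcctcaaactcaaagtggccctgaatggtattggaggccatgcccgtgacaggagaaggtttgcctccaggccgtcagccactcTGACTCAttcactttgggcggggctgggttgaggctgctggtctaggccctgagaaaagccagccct
The matches begin 125 and 69 bases before a start in LAMA3 and 67 bases before a start in LAMB3, whose other 2 windows held none. Both are starts inside the annotated gene, which begins at chr18:23689453 for LAMA3 and chr1:209652425 for LAMB3. A match describes the letters of a window and is neither a binding site nor a cause.

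LAMB3, the β chain known from laminin-332, was at 174.9 and 189.4 CPM in shCtrl and at 58.3 and 12.0 CPM in shFOXK2. Both shFOXK2 libraries were below both controls, and they differed 4.87-fold from each other. The log2 fold change was -2.38 (SE 0.50, adjusted p = 0.00158), and leaving out shFOXK2 replicate 1 gave -3.95, leaving out replicate 2 of that group -1.68. LAMA3 was at 20.8 and 16.6 CPM in shCtrl and 4.71 and 5.49 CPM in shFOXK2. The groups were well apart and the replicates close (log2 fold change -1.87, SE 0.31, adjusted p = 0.000322). The counts pool all LAMA3 transcripts, the long and the short.

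Laminin-511 and laminin-521, the LAMA5 laminins of mature epithelial basement membrane, share LAMA5 and LAMC1 and differ in the β chain. LAMA5 had the most CPM of the laminin chains in every library, at 1065 and 963.1 CPM in shCtrl and 577 and 516.1 CPM in shFOXK2. The groups did not overlap, and the test was passed (log2 fold change -0.89, SE 0.23, adjusted p = 0.00671). LAMC1, the γ chain of most laminins, was at 292.5 and 289.1 CPM in shCtrl and 117.5 and 135.5 CPM in shFOXK2. Replicates of each group lay close together, and the log2 fold change was -1.20 (SE 0.23, adjusted p = 0.00087). LAMB2 went from 217.2 and 229.5 CPM to 118.7 and 117.6 CPM (log2 fold change -0.92, SE 0.23, adjusted p = 0.00458). LAMB1, its alternative in the trimer, was at 332.3 and 287.1 CPM in shCtrl and 310.1 and 268 CPM in shFOXK2. These levels overlapped, and the log2 fold change of -0.10 (95% interval -0.59 to 0.39) did not pass (adjusted p = 0.746).

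The remaining laminin genes were low, apart from LAMA4, the α chain of endothelial and mesenchymal laminins. LAMA4 was at 40.5 and 33.9 CPM in shCtrl and 33.2 and 42.0 CPM in shFOXK2, overlapping groups with a log2 fold change of 0.02 (95% interval -0.55 to 0.58). LAMA1, the α chain of the embryonic laminin-111, went from 7.93 and 7.35 CPM to 4.50 and 1.92 CPM (log2 fold change -1.27, SE 0.40, adjusted p = 0.0185). Both shFOXK2 libraries were lower, but leaving out shFOXK2 replicate 1 gave -2.01, and the call was lost without shFOXK2 replicate 2 (-0.80) and under the A content offset (-0.96, adjusted p = 0.0664). LAMA2, LAMB4 and LAMC3 each had between 11 and 60 counts per library, and their higher fitted levels in shFOXK2 (log2 1.06, 0.93 and 0.48) did not pass the test.

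Per length, the make-up of the laminin chains differed between the groups. In RPKM (CPM per kilobase of the canonical transcript), which allows chains to be compared, the summed β chains were at 140.6 and 138.4 RPKM against 90.4 and 71.3 RPKM (58.0%), and the summed α chains at 101.7 and 91.4 RPKM against 56.2 and 52.0 RPKM (56.0%). Both sums were lower in both shFOXK2 libraries. LAMB1 made up 41.8% and 36.7% of the β chain sum in shCtrl and 60.7% and 66.5% in shFOXK2. LAMB3 went from 31.0% and 34.1% of that sum to 16.1% and 4.19%. The RPKM ratio of LAMB1 to LAMB2 was 1.54 and 1.26 in shCtrl and 2.63 and 2.30 in shFOXK2. The β chain pool thus held a larger share of LAMB1 in both shFOXK2 libraries, without overlap, while the LAMB1 level overlapped. Per canonical length, LAMA5 was above LAMB1 in shCtrl (93.2 and 84.3 RPKM against 58.8 and 50.8 RPKM) and below it in shFOXK2 (50.5 and 45.2 RPKM against 54.9 and 47.4 RPKM). The order in shFOXK2 depends on the transcript chosen for LAMB1. Its canonical transcript has 5650 bases and its longest 6737, which would put LAMB1 below LAMA5 there too. LAMA5 remained between 86.8% and 92.2% of the α chain sum in all 4 libraries. Such sums, shares and ratios are given without a test, since an exact two-sided permutation test of 2 against 2 libraries cannot go below p = 0.333.

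**Figure D3:**
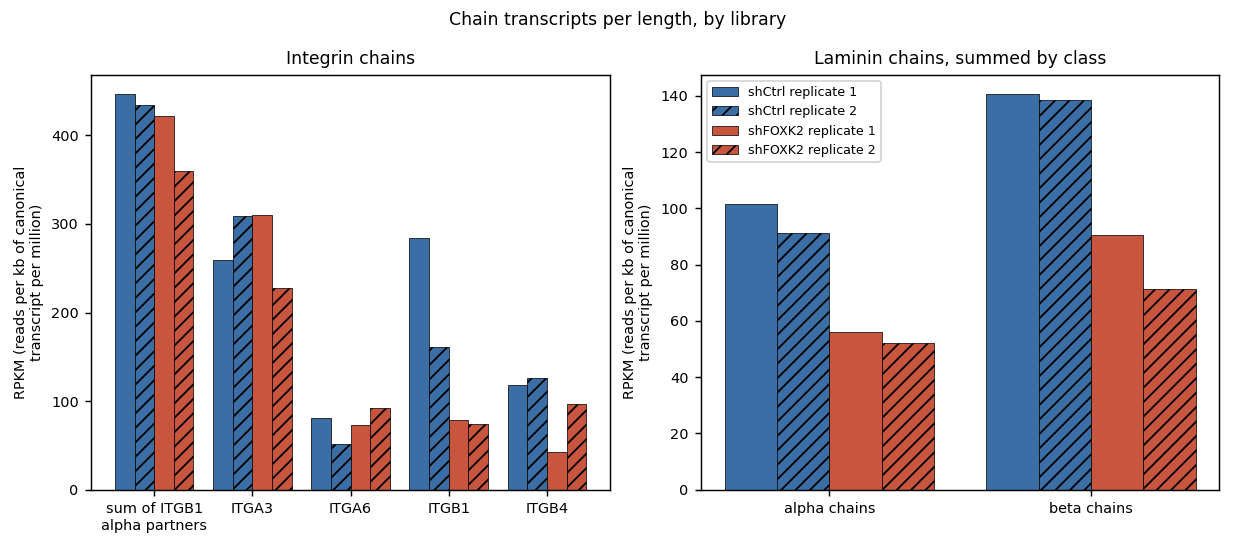
Level per length (RPKM, linear axis from 0) in each library, for selected integrin chains and the sum of the 12 α chains that can pair with ITGB1 (left) and for the laminin α and β chains summed by class (right), with shCtrl in blue, shFOXK2 in red and replicate 2 hatched. ITGB1 falls from 284 and 161 RPKM to 78.2 and 74.1 RPKM beside α partners that go from 446 and 434 RPKM to 422 and 360 RPKM.

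ITGB1, the β chain shared by 12 of the α chain genes studied, was lower in shFOXK2. It was at 1062 and 602.2 CPM in shCtrl and at 292 and 276.9 CPM in shFOXK2. Both shFOXK2 libraries were lower than both controls, which differed 1.76-fold from each other. The log2 fold change was -1.55 (SE 0.28, adjusted p = 0.000619), with a range of -1.97 to -1.12 when 1 library was left out. ITGB5, which joins αV in a vitronectin receptor, went from 126.9 and 137.8 CPM to 56.9 and 70.3 CPM (log2 fold change -1.06, SE 0.24, adjusted p = 0.0029). ITGB3, the β chain of the αV receptor of angiogenic endothelium and osteoclasts, went from 14.1 and 14.9 CPM to 4.99 and 2.69 CPM (log2 fold change -1.93, SE 0.36, adjusted p = 0.000678). Neither gene overlapped between groups. In the GENCODE annotation 33.2% of ITGB3 exon bases are shared with another gene, so its count is less certain. The 5 endothelial markers summed to 10.6 and 7.72 CPM in shCtrl and 0.844 and 2.09 CPM in shFOXK2, and their part in the ITGB3 value was not tested.

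ITGB4, the partner of α6 in hemidesmosomes, was at 698.8 and 744.8 CPM in shCtrl and at 252.6 and 573 CPM in shFOXK2. The shFOXK2 libraries were both lower and differed 2.27-fold from each other, and the log2 fold change (-0.81, SE 0.32, adjusted p = 0.0524) did not pass the threshold. ITGB4 passed in DESeq2 (adjusted p = 0.032), and in edgeR without shCtrl replicate 1 (-0.89), shCtrl replicate 2 (-0.84) or shFOXK2 replicate 2 (-1.55), while it was at -0.36 without shFOXK2 replicate 1 and at -0.41 under the A content offset. ITGB8, an αV partner that binds latent TGF-β, was at 22.01 and 7.60 CPM in shCtrl and 3.45 and 10.9 CPM in shFOXK2, overlapping groups with a log2 fold change of -1.04 (adjusted p = 0.112). Without shFOXK2 replicate 2 it passed at -2.14 and without shCtrl replicate 2 at -1.68, whereas without shCtrl replicate 1 it was at -0.11 and without shFOXK2 replicate 1 at -0.47. ITGB6, another epithelial αV partner, and ITGB2, the β chain of leukocyte integrins, had between 12 and 41 counts per library and did not pass.

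Among the 3 laminin-binding α chains, 0 passed the test. ITGA3, the α chain of the laminin-332 and laminin-511 receptor α3β1, had the most CPM of the integrin genes in every library, at 1268 and 1510 CPM in shCtrl and 1514 and 1112 CPM in shFOXK2. Its groups overlapped, and the log2 fold change was -0.08 (95% interval -0.63 to 0.47). ITGA6 was at 469 and 302.3 CPM in shCtrl and 422.2 and 538.2 CPM in shFOXK2, also overlapping (log2 fold change 0.32, 95% interval -0.25 to 0.88). Under the A content offset ITGA3 was at 0.26 and ITGA6 at 0.21, neither past the threshold. ITGA7, the muscle laminin receptor chain, had at most 70 counts and a log2 fold change of -0.59 (adjusted p = 0.197).

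Of the 4 collagen-binding α chains, 3 were tested, without ITGA10, and ITGA1 passed alone. ITGA1 went from 67.3 and 29.8 CPM to 12.4 and 19.3 CPM (log2 fold change -1.61, SE 0.37, adjusted p = 0.00286). The groups did not overlap, although the controls differed 2.26-fold, with values of -0.94 without shCtrl replicate 1 and -2.15 without shCtrl replicate 2, and 13.2% of its exon bases are shared with other genes, PELO among them. ITGA2, its epithelial relative, was at 72.2 and 30.5 CPM in shCtrl and 41.1 and 32.6 CPM in shFOXK2. The shFOXK2 values lay between the controls, and ITGA2 did not pass (log2 fold change -0.48, adjusted p = 0.271). Its value was 0.24 without shCtrl replicate 1 and, past the threshold, -1.04 without shCtrl replicate 2. ITGA11 missed the threshold at a log2 fold change of -0.99 (adjusted p = 0.0501), with 1.83 and 3.90 CPM in shFOXK2 against 6.01 and 5.54 CPM in shCtrl, and passed without shCtrl replicate 2 (-1.13) or shFOXK2 replicate 2 (-1.69).

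Of the α chains that recognise the RGD sequence of fibronectin or vitronectin, ITGA5 was lower. ITGA5, the fibronectin receptor chain, was at 182.1 and 211.4 CPM in shCtrl and 75.7 and 62.1 CPM in shFOXK2. The groups were far apart relative to the replicates (log2 fold change -1.51, SE 0.24, adjusted p = 0.000249), and the value ranged from -1.69 to -1.41 with 1 library left out. ITGAV, partner of β1, β3, β5, β6 and β8, was at 328.3 and 110.1 CPM in shCtrl and at 100.9 and 126.3 CPM in shFOXK2. One control library alone was high, and the log2 fold change of -0.95 (adjusted p = 0.0538) became 0.0096 without shCtrl replicate 1 and -1.61 without shCtrl replicate 2. It passed in DESeq2 (adjusted p = 0.0324) and without either shFOXK2 library (-0.82 and -1.15).

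The α chains best known from leukocytes were low, and 2 of them passed in opposite directions. ITGAM, the CD11b chain of macrophages and granulocytes, had 161 and 130 counts in shCtrl (7.22 and 8.10 CPM) and 3 and 22 counts in shFOXK2 (0.21 and 1.21 CPM). Both shFOXK2 libraries were lower (log2 fold change -3.35, SE 0.52, adjusted p = 0.000205), and leaving out shFOXK2 replicate 2 gave -5.16 and leaving out shFOXK2 replicate 1 gave -2.68. ITGAD, the CD11d chain, had 4 and 5 counts in shCtrl and 19 and 26 counts in shFOXK2. It was higher in both (log2 fold change 2.51, SE 0.53, adjusted p = 0.00172), at a level of at most 1.43 CPM. ITGAX (CD11c) was at 12.28 and 12.27 CPM in shCtrl and 12.02 and 10.16 CPM in shFOXK2 (log2 fold change -0.15, adjusted p = 0.702). ITGAE (CD103), which binds E-cadherin, was at 20.4 and 23.4 CPM in shCtrl and 15.5 and 28.1 CPM in shFOXK2, overlapping groups that did not differ past the threshold (log2 fold change 0.00, adjusted p = 0.997). ITGB2, the β chain of ITGAM, ITGAD and ITGAX, was at 0.75 to 1.54 CPM, and ITGB7, the partner of ITGAE, had 2 or 3 counts per library. The 9 leukocyte markers summed to 18.7 and 23.4 CPM in shCtrl and 11.0 and 10.2 CPM in shFOXK2, with CD2 and TYROBP at 0 in all 4 libraries and most of the sum in CD14. The part of other cells in these values was not tested.

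When chains were paired, the balance of α to β transcripts differed between the groups for some pairs and overlapped for others. Per length, ITGA3 stood to ITGB1 at 0.91 and 1.92 in shCtrl and at 3.96 and 3.07 in shFOXK2. The 12 α chains that can pair with ITGB1 summed to 446 and 434 RPKM in shCtrl and to 422 and 360 RPKM in shFOXK2 (88.7% of control), beside ITGB1 at 284 and 161 RPKM against 78.2 and 74.1 RPKM (34.2%). The ratio of that sum to ITGB1 was 1.57 and 2.69 in shCtrl and 5.40 and 4.85 in shFOXK2, without overlap. Over all chains, the β sum was 42.9% and the α sum 88.6% of control. The ITGA6 to ITGB4 ratio was 0.68 and 0.41 in shCtrl and 1.70 and 0.95 in shFOXK2, higher in both shFOXK2 libraries. The ratio of ITGA5 to ITGB1 overlapped (0.151 and 0.309 in shCtrl, 0.228 and 0.197 in shFOXK2), as did that of ITGAV to ITGB5 (1.63 and 0.504 against 1.12 and 1.13). ITGAV stood at 51.8% of control and the sum of its partners ITGB3, ITGB5, ITGB6 and ITGB8 at 46.9%.

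For each of 23 integrin dimers and 15 laminin trimers known from the literature, the chain with the lowest RPKM was taken as the transcript in shortest supply. This is a count of transcripts and not of assembled protein. With at least 1 RPKM of that chain in shCtrl, 10 dimers and 8 trimers could be described. Among the dimers, 4 had a lower scarcest chain in shFOXK2 without overlap (α1β1, α3β1, α5β1 and αVβ3), and 6 overlapped, α6β1 and α6β4 among them. In α3β1 the scarcest chain was ITGA3 in shCtrl replicate 1 and ITGB1 in the other 3 libraries, at 259 and 161 RPKM in shCtrl and 78.2 and 74.1 RPKM in shFOXK2 (36.2% of control). Which chain is scarcest can depend on the transcripts chosen for length. The canonical and longest transcripts have 4889 and 5479 bases for ITGA3 and 3735 and 5614 for ITGB1. By the longest, ITGB1 would be the scarcer in shCtrl replicate 1 too. In α5β1 the scarcest chain was ITGA5 throughout, at 42.8 and 49.7 RPKM against 17.8 and 14.6 RPKM (35.0%). In α6β4 the scarcest chain was ITGA6 in 3 libraries and ITGB4 in shFOXK2 replicate 1, with no separation of the groups (80.6 and 52.0 RPKM against 42.8 and 92.5 RPKM).

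Among the trimers, 6 of 8 had a lower scarcest chain without overlap. LAMC1 was the scarcest chain of both laminin-511 and laminin-521 in every library, at 36.9 and 36.5 RPKM in shCtrl and 14.8 and 17.1 RPKM in shFOXK2 (43.5%). LAMA3 was the scarcest chain of laminin-332 and of both other LAMA3 trimers, at 1.95 and 1.56 RPKM against 0.44 and 0.52 RPKM (27.3%). The 2 trimers that overlapped were those of LAMA4 with LAMC1, at 5.60 and 4.69 RPKM against 4.59 and 5.81 RPKM. The LAMA3 level per length depends on the transcript chosen, since its canonical transcript has 10651 bases and its shortest annotated coding one 5007.

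Transcript composition moved with some of these levels between the control libraries. Over the 29 tested genes with at least 10 counts in every library, the log2 ratio of shCtrl replicate 1 to replicate 2 correlated with the A content of the transcript (Pearson's r = 0.68, Spearman's rho = 0.73, across genes of the same 2 libraries and therefore a description without p). The 9 genes with an A content of at least 29% (ITGA1, ITGA2, ITGA6, ITGAV, ITGB1, ITGB6, ITGB8, LAMA2 and LAMA4) had ratios of 1.19 to 2.98 with a median of 1.76, and the other 20 had ratios of 0.66 to 1.499 with a median of 0.95. Between the groups, the log2 fold change of the 29 had r = 0.04 with A content. With an offset for A content ITGB1 was at -1.99 and ITGA1 at -2.36, and ITGA2 (-1.08, adjusted p = 0.00783) and ITGAV (-1.12, adjusted p = 0.0172) passed the edgeR test. Genes called lower with an A content under 29% moved towards 0 instead. LAMB2 went from -0.92 to -0.57, LAMA5 from -0.89 to -0.67, ITGB5 from -1.06 to -0.70 and ITGA5 from -1.51 to -1.18, all still past the threshold. LAMA1 lost its call.

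**Figure D4:**
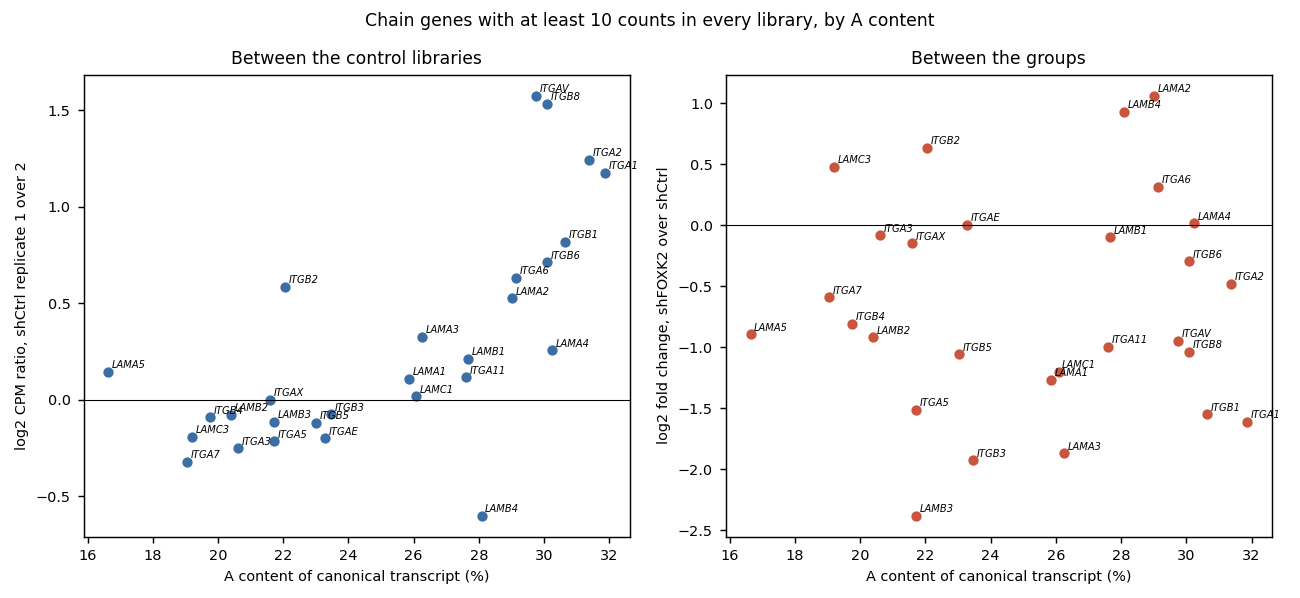
A content of the canonical transcript (percent, x axis) against the log2 CPM ratio of the control libraries (left) and the log2 fold change between the groups (right), 1 point per chain gene shown with at least 10 counts in every library. ITGAV, ITGB8, ITGA2 and ITGA1 stand highest on the left at an A content over 29%, and the right panel shows no such slope (r = 0.04).

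The genes that work with these chains were described from 5 lists, each set beside the backgrounds of 22.7% lower and 25.7% higher. The lists were chosen with earlier results of these data known, so a share above the background is a description and not a test. Of 28 adaptors that connect integrins to the cytoskeleton, 7 were lower and 3 higher (median log2 fold change -0.06), or 6 and 5 with an offset for GC content. TNS3, a tensin of focal adhesions, fell from 1271 and 1256 CPM to 103.1 and 127.2 CPM (log2 fold change -3.46, adjusted p = 1.13e-06), and the kinase gene SRC fell by 1.82 on the log2 scale. TNS4 (2.46), a tensin without the actin-binding part, and DST (2.61), which encodes a plakin that ties α6β4 to keratin in hemidesmosomes, rose. Of 14 surface partners of integrins, 5 were lower and 1 higher (median -0.36), with the tetraspanins CD82 (-2.05) and CD9 (-1.88) and the urokinase receptor PLAUR (-1.10, and -0.79 without shFOXK2 replicate 2, where the call was lost) lower and the caveolin CAV1 (2.09) higher. This split of the surface partners depended on the scaling, with 5 lower and 4 higher under the A content offset, 6 and 3 under the GC content offset and 4 and 2 with library size scaling.

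Of 22 other basement membrane genes, 16 were tested, and 6 were lower and 1 higher (median -0.68). The heparan sulfate proteoglycans HSPG2 (perlecan, -2.03) and AGRN (agrin, -1.79), the collagen IV chain COL4A5 (-1.62) and SPARC (-4.26) fell. Of 19 laminin receptors that are not integrins, 17 were tested, and 6 were lower and 2 higher (median -0.51), or 9 and 1 under the A content offset and 8 and 1 under that for GC content. Dystroglycan (DAG1) went from 331 and 364.4 CPM to 80.1 and 90.04 CPM (log2 fold change -2.03, adjusted p = 2.65e-05). The syndecan SDC4 (-2.14) and MCAM (-1.74) fell too, and utrophin (UTRN, 1.52), which couples dystroglycan to actin, rose. UTRN was at 45.4 and 15.01 CPM in shCtrl and 62.9 and 110.2 CPM in shFOXK2, with a log2 fold change of 2.49 without shCtrl replicate 1, 0.86 without shCtrl replicate 2, 1.03 without shFOXK2 replicate 2 and 0.87 under the A content offset, where the call was lost. Of 23 other integrin ligands, 21 were tested, and 12 were lower and 2 higher (median -0.97). Fibronectin (FN1), the ligand of α5β1, went from 921.1 and 879.6 CPM to 33.7 and 21.4 CPM (log2 fold change -5.03, adjusted p = 3.16e-07). ICAM1, a ligand of leukocyte integrins, L1CAM, a ligand of RGD-binding integrins, and CDH1, the E-cadherin that ITGAE binds, fell, with log2 fold changes of -5.37, -4.08 and -4.02.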

How the data were processed

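The authors aligned single-end reads of poly(A)-selected RNA to hg38 with STAR 2.5.2, counted them per gene with HTSeq and deposited raw counts per gene symbol, 1 table for each of 4 libraries. The HTSeq version, strand setting and annotation are not given in the sources used here, so reads of overlapping and antisense genes cannot be told apart. Gene tests used edgeR 4.0.16 (R 4.3.3): filterByExpr, TMM scaling, the quasi-likelihood F test over 16417 genes and Benjamini-Hochberg adjustment with a threshold of 0.05. The p-values rest on the spread between 2 libraries a group, moderated towards a trend over all genes tested, and do not cover another hairpin. Alternatives used DESeq2 1.42.0, an exact test, other scalings and filters, a minimum fold change, offsets for A or GC content (lowess, span 0.2; 87.7% of tested genes had a value, and all 37 chain genes) and each library left out. Transcript lengths and composition came from GENCODE v44 canonical transcripts, and 36902 symbols matched. RPKM is TMM-scaled CPM per kilobase. The script was tested on simulated counts. Replicates were not copies (chi-square per gene 38.2 in shCtrl and 27.9 in shFOXK2). The chain genes and all gene lists were chosen with earlier results of these data known. All but 1 of the tested chain genes are described (1 chain gene and 1 marker are not reported here, though the counts include them); those past the threshold or with a group mean of at least 10 CPM have a value for each library. From each list, at most 4 genes are named, by largest absolute log2 fold change among those past the threshold, without overlap between groups and averaging 3 or more in log2 CPM. ChIP-seq was not analysed here.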

Additional observations from a re-analysis of the deposited data

How the results depend on the processing

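The count of chain genes past the threshold was 14, and was 7 when edgeR's glmTreat tested for a log2 fold change beyond 1, where the counts over all genes were 3386 against 7940. Under that test the lists gave 5 adaptors, 3 surface partners, 3 other laminin receptors and 9 other ligands. The other alternatives gave between 13 and 18 chain genes, and 15 to 19 with 1 library left out. The correlation of same-numbered deviations across genes was -0.113. With 2 libraries a group, it cannot decide whether the replicate numbers pair the libraries. The replicate block gave 17 calls. A crossed block, added after seeing the data, gave 18. The following log2 fold changes changed sign. With the A content offset, which moved the median of all genes by 0.17, ITGA3 was at 0.26, ITGAX at 0.17, LAMA4 at -0.38 and LAMB1 at 0.017. With the GC content offset (median moved by 0.12), ITGA3 was at 0.23, ITGAX at 0.14 and LAMB1 at 0.16, and with the block as well at 0.23, 0.15 and 0.16. ITGAE was at -0.058 with the block, -0.051 with the crossed block, -0.079 in DESeq2, -0.014 with DESeq2 size factors and -0.10 without a filter, and LAMA4 at -0.062, -0.00067 and -0.088 in the last 3. With 1 library left out, the ranges were -1.04 to 0.24 for ITGA2, -0.35 to 0.093 for ITGA3, -0.041 to 0.63 for ITGA6, -0.52 to 0.34 for ITGAE, -1.61 to 0.0096 for ITGAV, -0.66 to 0.086 for ITGB6 and -0.20 to 0.15 for LAMA4. Without shCtrl replicate 2, ITGA2 passed, and LAMA2 passed without shFOXK2 replicate 1 (1.48). The causes were not tested. Of 370 values of chain genes under alternatives that kept all libraries, 314 kept direction and call. The scarcest chain of α6β1 and of the LAMA4 trimers moved with the transcript chosen for length, to a log2 change of -0.39 or -0.52 for α6β1 and -1.20 for LAMA4. Depth sets the floor of 3 counts, and 11 tested chain genes averaged under 10 CPM.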
